A study of Mus musculus with 24 samples.

Results

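Lungs taken at day 180 after thoracic irradiation were compared with unirradiated lungs of the same day by small RNA sequencing, which counts the short RNAs of a tissue one by one. The comparison holds 8 of the 24 libraries of the study, 4 from control and 4 from irradiated lungs. All annotated mouse miRNAs with enough counts for a test were taken as its members. These were 503 of the 1334 annotated miRNAs in the day 180 table, and the other 831 had too few counts. The mice were of the inbred strain C57BL/6 and 6 to 8 weeks old when divided into groups. The irradiated group received a total of 15 Gy of X-rays (225 kV, 200 cGy/min) over the whole thoracic cavity in a fixture that spared the rest of the body. The control group is labelled as control only, with no sham exposure named. The same design was used at day 14 and day 90, each with its own controls, and the title of the study names miR-208a-3p with PPP6C, a phosphatase subunit gene that was not measured. Whether 4 libraries stand for 4 mice is not told by the labels, and p-values here measure the spread between libraries, which may be technical. The RNA was from whole lung tissue, in which fewer cells of a type and less RNA per cell cannot be told apart.

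A miRNA is cut from a hairpin precursor whose arms give the products named 5p and 3p, and the product that is loaded into an Argonaute protein guides it to messenger RNAs that pair with its seed, bases 2 to 8 from the 5′ end. miRNAs with the same seed share most of their predicted targets and are grouped into families. In the irradiated lung an early pneumonitis is followed over months by fibrosis, the laying down of collagen by activated fibroblasts, and day 180 in the mouse is usually counted to that late phase. miR-21 and miR-155 are known for their induction in inflamed and fibrotic lung, while miR-26, miR-29 and miR-30 are known as brakes on matrix genes or on growth factor signalling.

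The miRNAs on which the comparison turns are printed below 5′ to 3′ from RefSeq (GRCm38.p6), with the seed in capitals. The paired relatives are shown because they have the same seed, and differences within a pair were not tested.
miR-7a-5p: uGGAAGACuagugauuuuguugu
miR-7b-5p: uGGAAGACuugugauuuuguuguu
miR-196a-5p: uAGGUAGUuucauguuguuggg
miR-196b-5p: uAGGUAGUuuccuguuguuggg
miR-10a-5p: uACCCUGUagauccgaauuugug
miR-10b-5p: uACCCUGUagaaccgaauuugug
miR-26a-5p: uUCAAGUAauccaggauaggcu
miR-26b-5p: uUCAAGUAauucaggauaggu
miR-92a-3p: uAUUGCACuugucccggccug
miR-92b-3p: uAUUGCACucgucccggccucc
The next set stands for the miRNAs with no tested close relative among those described in full.
miR-184-3p: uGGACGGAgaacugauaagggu
miR-21a-5p: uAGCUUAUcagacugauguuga
miR-155-5p: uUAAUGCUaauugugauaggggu
miR-132-5p: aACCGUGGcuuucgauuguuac
miR-19b-3p: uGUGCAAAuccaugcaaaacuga
miR-582-5p: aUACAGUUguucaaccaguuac
miR-361-5p: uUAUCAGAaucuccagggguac
miR-672-3p: aCACACAGucacuaucuucga
Counted from the 5′ end, miR-7b-5p differs from miR-7a-5p by A10U, miR-196b-5p from miR-196a-5p by A12C and miR-10b-5p from miR-10a-5p by U12A. miR-26b-5p differs from miR-26a-5p by C11U and C21U, and miR-92b-3p from miR-92a-3p by U10C and G21C. All of these lie outside the seed. miR-124-3p and miR-145a-5p are described by name. In all, 420 of the 503 tested miRNAs were matched to a RefSeq sequence.

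Total counts of the 8 libraries lay between 2832205 and 3695133. Irradiated library 1 stood apart: it had the lowest total, 744 table rows at 0 against 469 to 623 in the other 7, and a median Spearman correlation to the others of 0.914 against 0.940 to 0.962. The 10 most abundant miRNAs took 34.7% of its counts and 26.7% to 29.3% of those of the others. The counts of the 10 most abundant miRNAs hardly varied between libraries, with a median coefficient of variation of 3.42% against 7.96% for the library totals. miR-126a-3p, an endothelial miRNA, had 111905 to 113233 counts in every library. Differences between groups were correspondingly small among these 10 (median absolute log2 fold change 0.11) and larger in abundance ranks 51 to 150 (0.39). Levels are given below in CPM, counts in proportion to the library total after scaling by trimmed mean of M-values factors. Each result is given with irradiated library 1, and some are also given without it. Where no second value is given, the result may still depend on that library.

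No miRNA passed the test at day 180. edgeR's quasi-likelihood test with Benjamini-Hochberg adjustment called 0 of the 503 annotated miRNAs (percent called 0) at an adjusted p under 0.05, and the smallest adjusted p was 0.0809. At an unadjusted p under 0.05 it counted 94 of 503 (18.7%), 53 of them higher (10.5%) and 41 lower (8.15%) in irradiated lungs. Over all 552 rows tested, predicted miRNAs included, the count was 101 (18.3%), where 27.6 would be expected with no difference. In 61 of the 503 miRNAs (12.1%) the 4 irradiated libraries lay wholly above the 4 controls (27, 5.37%) or wholly below them (34, 6.76%). Without irradiated library 1 the groups did not overlap in 113 (22.5%). A smaller group separates more easily, whichever library is left out. Over all rows the count was 66 of 552 with every library, 130 of 575 without irradiated library 1 and 122 of 573 without irradiated library 2. It was 75 to 93 with any other library left out. The other tools gave other counts over their own rows: DESeq2 called 27 (3.90%), limma-voom 0, limma-voom with library weights 44 (7.97%) and edgeR with all 24 libraries in 1 fit 32 (5.13%). The weight that limma-voom gave irradiated library 1 was 0.12, against 0.45 to 3.18 for the rest.

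**Figure D1:**
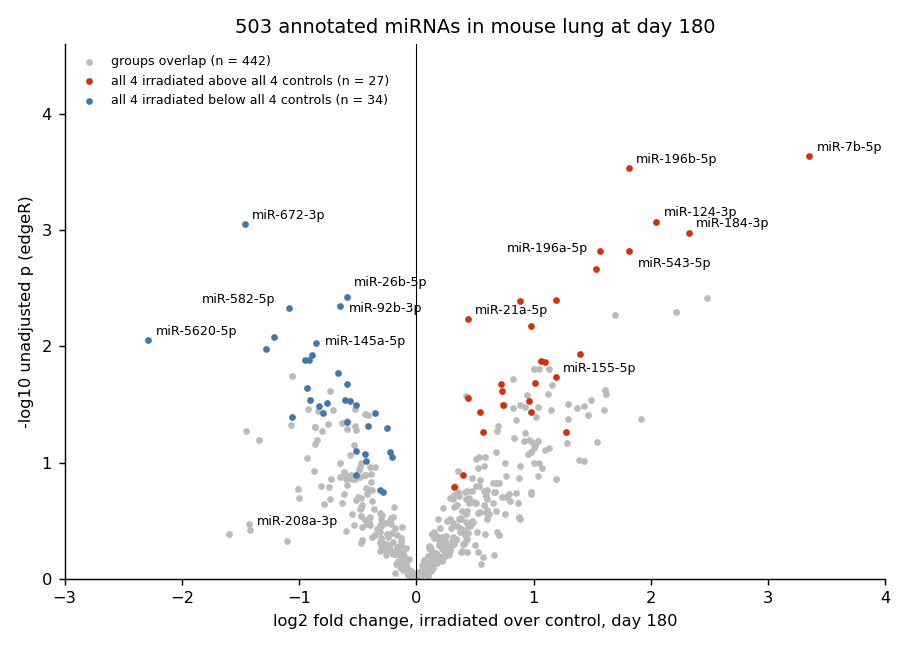
Log2 fold change of irradiated over control lung at day 180 (x axis) against the unadjusted edgeR p as -log10 (y axis) for 503 annotated miRNAs, each a point. Red points are the 27 miRNAs whose irradiated libraries all lay above the controls and blue points the 34 whose irradiated libraries all lay below, with miR-7b-5p farthest to the right at 3.35.

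From the 61 miRNAs with separated groups, the 15 higher and the 15 lower with the smallest p are described below. They were chosen by this same contrast, so their separation and direction are fixed by the choice and their values are a description. The unadjusted p was at most 0.0185 among the 15 higher and 0.0288 among the 15 lower. Of the 30, 17 passed with DESeq2 (3.90% over all rows) and 23 with library weights (7.97%). With all 24 libraries in 1 fit 19 passed (5.13%). These fits hold the 8 libraries by which the 30 were chosen, so the counts are no further support.

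miR-7b-5p, a miRNA of neurons and neuroendocrine cells that is also known from the pituitary and hypothalamus, showed the widest separation. It stood at 68.6, 120, 73.4 and 54.2 CPM in the control lungs and at 454, 1142, 1417 and 216 CPM in the irradiated lungs. Every irradiated library was above every control, and the irradiated libraries spread widely among themselves. The means were 79.1 ± 28.6 and 807 ± 565 CPM (SD, n = 4 each), the log2 fold change was 3.35 ± 0.59 (SE), and the edgeR adjusted p was 0.0809. Its hairpin lies at chr17:56242988-56243098 on the plus strand, outside annotated genes (GRCm38.p6). The adjusted p was 5.14e-07 with DESeq2 and 0.00682 with library weights, and over the alternatives it ran from 7.37e-09 to 0.32.

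miR-7a-5p, which has the same seed and hairpins at chr7:78888277-78888373 (plus strand) and in an intron of Hnrnpk at chr13:58392779-58392886 (minus strand), stood at 793 to 865 CPM in control lungs against 3188, 887, 1272 and 1705 CPM after irradiation. All irradiated libraries were above the controls, but irradiated library 2 by little and irradiated library 1 by far. Its log2 fold change was 1.09 ± 0.36 (SE; edgeR adjusted p = 0.251) and 0.63 without irradiated library 1. The passenger product miR-7a-1-3p stood at 279 ± 29.0 CPM in control lungs against 201 ± 78.6 CPM after irradiation (log2 fold change -0.48), so the tested arms of the miR-7a-1 hairpin were on opposite sides of 0.

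Some other neural miRNAs lay on the higher side as well, and others below 0, such as both products of miR-153 (-0.29 and -0.15). miR-124-3p, the most abundant miRNA of brain neurons, stood at 9.84, 7.74, 4.95 and 12.1 CPM in control lungs against 36.3, 49.2, 42.8 and 14.9 CPM after irradiation, separated though at low levels (log2 fold change 2.05 ± 0.43, edgeR adjusted p = 0.0997). miR-184-3p, a miRNA of brain, lens and corneal epithelium (chr9:89802260-89802328, minus strand, outside annotated genes), stood at 11.7, 23.2, 7.58 and 17.3 CPM in controls. In irradiated lungs it stood at 63.6, 29.4, 74.4 and 132 CPM, all above the highest control (log2 fold change 2.32 ± 0.50, edgeR adjusted p = 0.0997). Both kept their size without irradiated library 1, at 2.03 and 2.38. miR-9-5p and miR-9-3p, products of a neural progenitor hairpin, had log2 fold changes of 0.93 and 1.30 with overlapping groups, and 0.49 and 0.65 without irradiated library 1.

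Of the 40 neural and neuroendocrine miRNAs listed, 21 were tested, and 15 of these were above 0 and 6 below, with a median log2 fold change of 0.93 against 0.10 over all 503. In 5 of the 21 all irradiated libraries were above the controls (miR-7b-5p, miR-7a-5p, miR-124-3p, miR-184-3p and miR-132-5p), where the share over all annotated miRNAs was 5.37%, and in none were they all below. No member passed with edgeR. The median was 0.49 without irradiated library 1. The abundant members did not stand apart: miR-375-3p, a miRNA of endocrine cells and lung neuroendocrine cells, was at 4380 to 6163 CPM in control lungs against 2577 to 10501 CPM after irradiation, and miR-218-5p was at 5539 to 6021 against 4843 to 8756 CPM. The summed level of the list was 12015 to 14598 CPM in control lungs against 11342 to 20085 CPM after irradiation, which overlap.

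miRNAs encoded in the Hox clusters, the gene groups that pattern the body axis, lay above 0 in 6 of 6 tested members. miR-196b-5p (chr6:52230081-52230165, minus strand, in an exon of Hoxa9) stood at 27.7, 32.3, 25.4 and 35.6 CPM in control lungs against 136, 52.9, 126 and 110 CPM after irradiation. The lowest irradiated library was still above the highest control, and the log2 fold change was 1.81 ± 0.33 (SE; edgeR adjusted p = 0.0809). miR-196a-5p, with the same seed and with hairpins at chr11:96265164-96265265 and, in an intron of Hoxc5, at chr15:102973350-102973434 (both plus strand), stood at 8.51, 11.7, 6.70 and 9.59 CPM in controls. In irradiated lungs it stood at 20.2, 16.1, 36.4 and 35.9 CPM, again with no overlap (log2 fold change 1.57 ± 0.36, edgeR adjusted p = 0.105).

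miR-10b-5p, from a hairpin in introns of Hoxd3 and Hoxd4 (chr2:74726070-74726137, plus strand), stood at 711, 655, 510 and 964 CPM in control lungs against 1762, 1017, 1655 and 1152 CPM after irradiation. The groups were separated, with irradiated library 2 just above control library 4, and the log2 fold change was 0.98 ± 0.28 (edgeR adjusted p = 0.183). miR-10a-5p, which differs from it by the single base named above, did not stand apart: it was at 22249 ± 2138 CPM in control lungs against 22904 ± 8219 CPM after irradiation (log2 fold change 0.04, or -0.24 without irradiated library 1). It is far more abundant than miR-10b-5p, and abundant miRNAs differed less between the groups. The median absolute log2 fold change was 0.21 in abundance ranks 11 to 50 and 0.39 in ranks 51 to 150. Whether abundance bears on the difference between miR-10a-5p and miR-10b-5p was not tested. Over the 6 members the median was 0.98, and 0.35 without irradiated library 1, since miR-615-3p and miR-10a-3p turned to -0.13 and -0.31 there while the values of miR-196a-5p, miR-196b-5p and miR-10b-5p were 1.67, 1.66 and 0.83. In these 3 of 6 all irradiated libraries were above the controls (5.37% over all annotated miRNAs, of which 288 of 503 were above 0). All 3 passed with DESeq2 (adjusted p of 0.00484, 7.40e-05 and 0.0409; 3.90% over all rows).

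**Figure D2:**
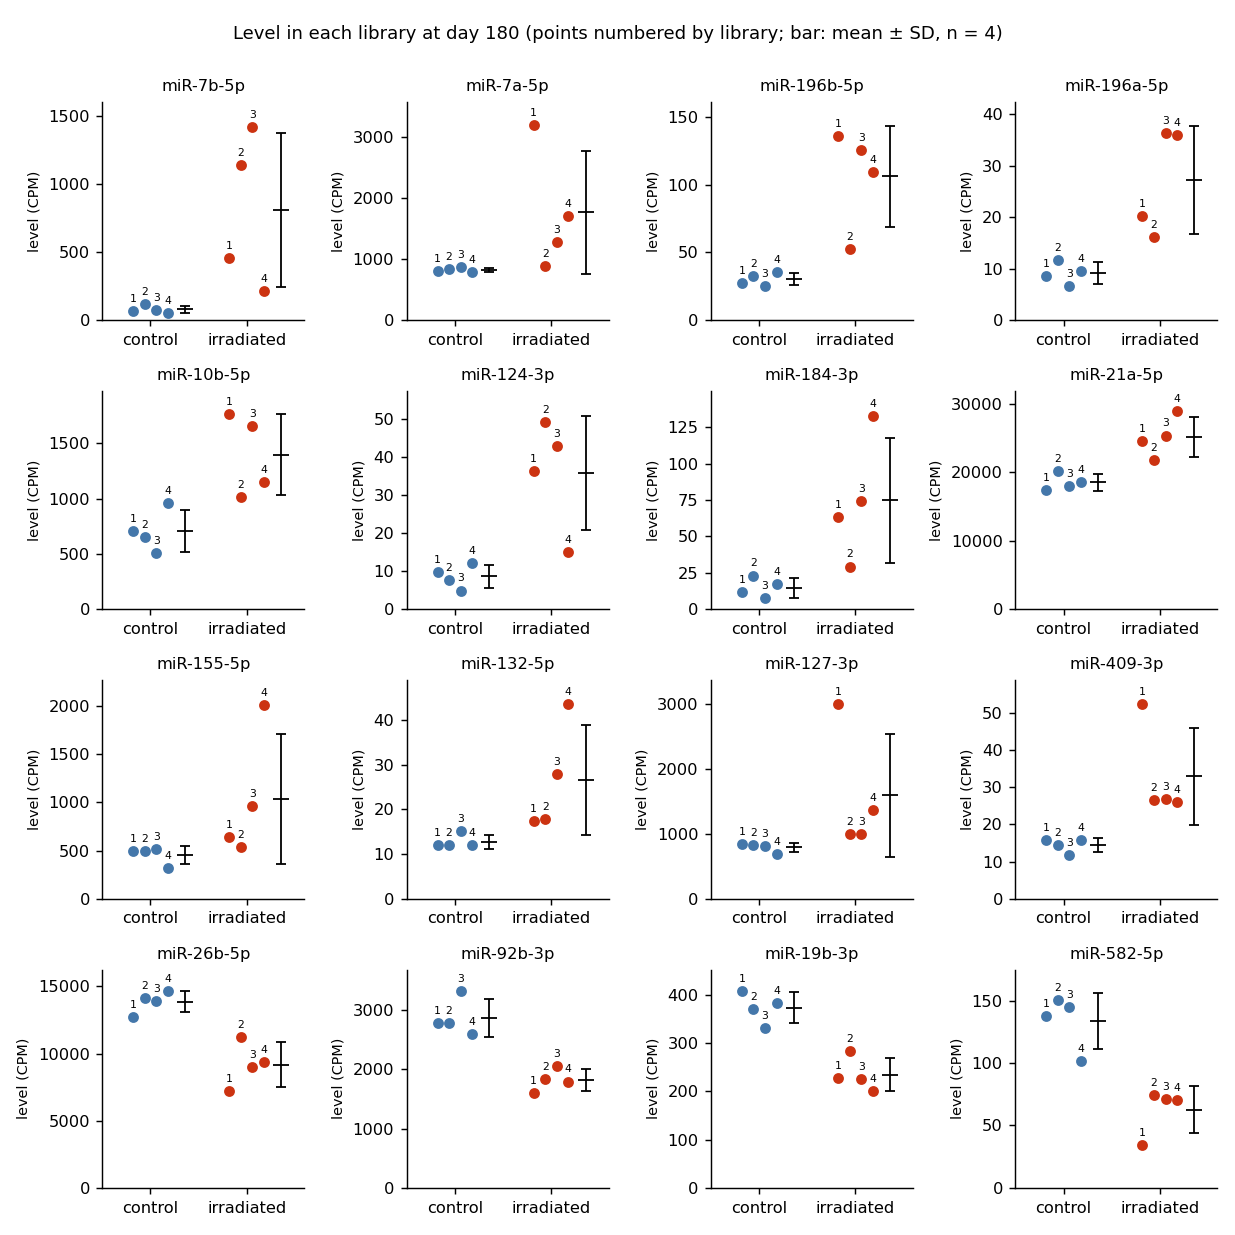
Level in CPM (y axis, from 0, own scale in each panel) of 16 miRNAs in the 4 control (blue) and 4 irradiated (red) libraries at day 180, points numbered by library and bars giving mean ± SD. In all 16 panels the groups do not overlap, and in the panels of miR-7a-5p and miR-127-3p irradiated library 1 is far above the rest of its group.

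Among miRNAs of inflammation, miR-21a-5p, which is induced in injured lung and targets brakes of growth factor signalling, stood at 17400, 20225, 17977 and 18610 CPM in control lungs against 24520, 21734, 25378 and 28921 CPM after irradiation. Every irradiated library was higher, by a narrow margin for irradiated library 2, and the log2 fold change was 0.44 ± 0.12 (SE; edgeR adjusted p = 0.171). The other arm of its hairpin (chr11:86584067-86584158, minus strand, in an exon of Vmp1), miR-21a-3p, stood at 106, 86.0, 76.1 and 36.2 CPM in control lungs against 146, 105, 495 and 662 CPM after irradiation. Irradiated libraries 3 and 4 were far above all others, and irradiated library 2 was just below the highest control (log2 fold change 2.21 ± 0.61).

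miR-155-5p, which promotes activation of macrophages and lymphocytes and comes from an exon of Mir155hg (chr16:84714140-84714204, plus strand), stood at 493, 493, 518 and 315 CPM in control lungs. After irradiation its levels were 641, 535, 965 and 2015 CPM, above all controls but close to them in irradiated library 2 (log2 fold change 1.19 ± 0.42, edgeR adjusted p = 0.259, or 0.67 without irradiated library 4). miR-147-3p, a miRNA induced by Toll-like receptor signalling in macrophages, stood at 2.92, 5.61, 2.62 and 1.86 CPM in control lungs against 17.3, 5.09, 9.87 and 41.2 CPM after irradiation (log2 fold change 2.48 ± 0.66), with irradiated library 2 inside the control range. miR-146b-5p, a feedback inhibitor of NF-kB signalling, was at 2181 ± 415 and 4190 ± 2194 CPM with a log2 fold change of 0.94, while its more abundant relative miR-146a-5p was at 11692 ± 1301 and 10705 ± 1672 CPM (-0.13).

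miR-132 and miR-212, whose shared gene is a target of the factor CREB, were above 0 in 4 of 4 products. miR-132-5p (chr11:75173682-75173747, plus strand, in an intron of 1700016P03Rik) stood at 12.0, 12.0, 15.2 and 12.1 CPM in control lungs against 17.3, 17.8, 27.8 and 43.7 CPM after irradiation, with no overlap (log2 fold change 1.06 ± 0.35, edgeR adjusted p = 0.251). miR-212-3p stood at 18.9 to 23.0 CPM in control lungs against 3.71, 37.3, 76.7 and 134 CPM after irradiation, so irradiated library 1 was below all controls and the other 3 above them (log2 fold change 1.54, or 0.86 without irradiated library 4). miR-132-3p had the same order, with 12.1 to 12.8 CPM in control lungs against 2.89, 15.8, 36.4 and 46.4 CPM after irradiation.

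Of the 18 tested members of the inflammatory list, 15 were above 0 and 3 below, and the median log2 fold change was 1.02, or 1.21 without irradiated library 1, against 0.10 and -0.0066 over all 503 miRNAs. It was 0.52 without irradiated library 4. In 5 all irradiated libraries were above the controls (miR-21a-5p, miR-155-5p, miR-132-5p, miR-222-3p and miR-125b-2-3p; 5.37% over all annotated miRNAs) and in none below. The 3 members below 0 were miR-125b-5p (-0.40), miR-146a-5p (-0.13) and miR-223-3p (-0.05). The summed level of the inflammatory list was 38683 to 50661 CPM in control lungs against 46598 to 57981 CPM after irradiation, which overlap. The products of miR-132 and miR-212 are also members of the neural list, so the inflammatory and neural lists are not independent. With DESeq2 miR-21a-3p, miR-147-3p and miR-125b-1-3p passed (adjusted p of 0.0102, 0.0102 and 0.0179; 3.90% over all rows), and no member passed with edgeR. Irradiated library 4 had the highest level in its group of miR-21a-5p, miR-21a-3p, miR-155-5p, miR-147-3p, miR-132-5p and miR-212-3p, and irradiated library 2 the lowest of miR-21a-5p, miR-21a-3p, miR-155-5p and miR-147-3p. Markers of blood leukocytes overlapped between the groups: summed over the list they were at 4273 to 5119 against 3827 to 6467 CPM for myeloid and at 16799 to 23363 against 16454 to 20179 CPM for lymphoid miRNAs. miR-342-5p of the lymphoid list stood at 64.3, 62.8, 35.3 and 62.5 CPM in control lungs against 295, 72.7, 92.6 and 132 CPM after irradiation (log2 fold change 1.40, or 0.80 without irradiated library 1), and the product of the other arm, miR-342-3p, was at 999 to 1141 against 385 to 2160 CPM.

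The miRNAs known to promote fibrosis showed no common direction, with 11 of 19 above 0 and a median of 0.32 (0.10 without irradiated library 1 and 0.09 without irradiated library 4). Their summed level, most of it miR-21a-5p and miR-34a-5p, was 50893 to 56848 CPM in control lungs against 60380 to 69520 CPM after irradiation, which did not overlap. miR-34a-5p, a p53 target and a driver of senescence, stood at 12007, 12949, 13251 and 14541 CPM in control lungs against 18824, 19956, 19083 and 12811 CPM after irradiation. Irradiated libraries 1 to 3 were above all controls and irradiated library 4 was among them (log2 fold change 0.42 ± 0.16). The wider p53-linked list had 4 of 15 above 0 and a median of -0.21, or -0.35 without irradiated library 1.

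Fibroblast miRNAs of the miR-199 and miR-214 genes gave unclear values. miR-199a-3p and miR-199b-3p have the same mature sequence, and their counts stood under either name depending on the library: the name miR-199b-3p held 6630, 7892, 4985 and 80 counts in the controls and 6, 11, 29 and 6324 in the irradiated libraries. Their sum was 6727, 7926, 5001 and 7401 counts in controls and 1334, 4358, 6098 and 6523 counts in irradiated lungs, so neither name can be read alone, and the lowest sum was in irradiated library 1. let-7c-2-3p and let-7a-1-3p, also of the same sequence, showed the same exchange of counts. The arm that can be told apart, miR-199b-5p, stood at 470, 481, 401 and 406 CPM in control lungs against 282, 322, 327 and 219 CPM after irradiation, all of these lower (log2 fold change -0.61 ± 0.24, edgeR adjusted p = 0.259), whereas miR-199a-5p was at 5405 ± 138 and 7054 ± 3546 CPM (0.38).

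miRNAs known to restrain fibrosis lay on both sides of 0, with 13 of 30 tested members above 0, 17 below, a median of -0.03 and a range of -0.73 (miR-30c-5p) to 1.10 (miR-30c-1-3p). Their summed level was nonetheless separated, at 122124 to 132988 CPM in control lungs against 97312 to 119101 CPM after irradiation, with abundant members at lower levels. miR-30b-5p stood at 17997, 17011, 17898 and 18476 CPM in control lungs against 7570, 15166, 12579 and 14702 CPM after irradiation, all of these below the controls (log2 fold change -0.51 ± 0.21, or -0.35 without irradiated library 1). miR-30a-5p was at 10935 ± 1763 and 8079 ± 1547 CPM and miR-30d-5p at 15742 ± 2461 and 11843 ± 2081 CPM, with overlap in each. The collagen-targeting miR-29a-3p, miR-29b-3p and miR-29c-3p had log2 fold changes of -0.40, -0.43 and -0.47, and -0.25, -0.21 and -0.32 without irradiated library 1, and their groups overlapped too.

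A large imprinted miRNA cluster on chromosome 12, between Dlk1 and Dio3, is expressed from the maternal chromosome only and is best known from embryo, placenta, muscle and brain. Of its 92 listed miRNAs 39 were tested, and 38 of these were above 0, with a median log2 fold change of 0.68 (0.66 without irradiated library 1 and 0.33 without irradiated library 4). Its summed level was 2456 to 2703 CPM in control lungs against 2983 to 6471 CPM after irradiation, with no overlap. These miRNAs are made from shared transcripts, so the 39 are not independent measurements. No member passed with edgeR, 14 of 39 had an unadjusted p under 0.05, all higher (10.5% over all annotated miRNAs), and in 4 of 39 the irradiated libraries were all above the controls (5.37%).

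Those 4 were miR-543-5p, miR-409-3p, miR-127-3p and miR-433-3p. miR-409-3p, from an intron of Mirg (chr12:109743158-109743236, plus strand), stood at 15.7, 14.4, 11.7 and 15.8 CPM in control lungs against 52.4, 26.6, 26.8 and 26.0 CPM after irradiation. Irradiated library 1 was far above the other 3, which lay together above the controls (log2 fold change 1.19 ± 0.32, edgeR adjusted p = 0.163, or 0.87 without irradiated library 1). miR-127-3p (chr12:109592846-109592915, plus strand), opposite an exon of the imprinted gene Rtl1, stood at 849, 823, 811 and 682 CPM in control lungs against 2999, 1004, 1002 and 1362 CPM after irradiation (log2 fold change 1.01, or 0.49 without irradiated library 1). miR-543-5p was at 1.86 to 3.09 CPM in control lungs against 4.24 to 13.5 CPM after irradiation, a separation at very low levels (log2 fold change 1.81 ± 0.41). The exception below 0 was miR-299a-5p, at 4.57 ± 0.37 and 3.00 ± 1.32 CPM.

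Of the remaining miRNAs among the 15 higher, miR-125a-3p stood at 37.8, 39.3, 30.0 and 39.3 CPM in control lungs against 78.0, 54.9, 70.1 and 67.1 CPM after irradiation, an even separation (log2 fold change 0.88 ± 0.24, edgeR adjusted p = 0.163). It is the minor arm of its hairpin, and the major arm miR-125a-5p, which targets immune signalling genes, had a log2 fold change of 0.15. miR-7689-3p was at 4.98 ± 1.22 and 14.6 ± 5.42 CPM (1.53).

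On the lower side, miR-26b-5p, a growth-restraining miRNA in an intron of the phosphatase gene Ctdsp1 (chr1:74394310-74394394, plus strand), stood at 12746, 14162, 13905 and 14646 CPM in control lungs. After irradiation its levels were 7176, 11206, 8972 and 9366 CPM, every library below the controls (log2 fold change -0.59 ± 0.16, edgeR adjusted p = 0.163). Its relative miR-26a-5p, printed above with the same seed, was at 30956 ± 2308 and 31467 ± 5869 CPM (0.02). It is one of the 10 most abundant miRNAs, whose counts hardly varied. Whether this bears on the difference between miR-26a-5p and miR-26b-5p was not tested.

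miR-92b-3p (chr3:89227116-89227198, minus strand, outside annotated genes) stood at 2770, 2772, 3317 and 2589 CPM in control lungs against 1590, 1836, 2055 and 1791 CPM after irradiation. The groups lay well apart, at -0.65 ± 0.18 in log2 fold change (edgeR adjusted p = 0.163; 0.0155 with DESeq2). miR-92a-3p has a hairpin in the miR-17 to miR-92a gene, which MYC and E2F factors activate in dividing cells. It has another on the X chromosome (chrX:52741838-52741928), and its counts cannot be assigned to either. Its levels were 6659, 6573, 7917 and 7289 CPM in control lungs against 3896, 6505, 5665 and 5324 CPM after irradiation (-0.41 ± 0.18). The groups did not overlap either, but irradiated library 2 was next to the lowest control.

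miR-19b-3p likewise has a hairpin in the miR-17 to miR-92a gene and another on the X chromosome. Its levels were 408, 371, 330 and 383 CPM in control lungs against 228, 283, 226 and 201 CPM after irradiation. The log2 fold change was -0.67 ± 0.23 (edgeR adjusted p = 0.259, and 0.0307 with DESeq2). miR-17-3p and miR-20a-5p were also below the controls in all irradiated libraries, with -0.56 and -0.44. Over the miR-17 to miR-92a gene and its paralogs, called the proliferation clusters, 12 of 18 tested miRNAs were below 0 with a median of -0.21, and -0.04 without irradiated library 1 and -0.44 without irradiated library 4. The 4 separated ones were all lower (6.76% over all annotated miRNAs) and none was higher. Their summed level was 10769 to 12056 CPM in control lungs against 6504 to 10486 CPM after irradiation, with no overlap.

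Both products of the miR-582 hairpin, in an intron of the phosphodiesterase gene Pde4d (chr13:109324744-109324824, plus strand), were lower. miR-582-5p stood at 138, 151, 145 and 101 CPM in control lungs against 34.7, 74.4, 71.1 and 70.7 CPM after irradiation, with irradiated library 1 lowest (log2 fold change -1.09 ± 0.30, edgeR adjusted p = 0.163). miR-582-3p stood at 64.3, 57.4, 46.9 and 43.3 CPM in control lungs against 40.9, 28.6, 23.3 and 17.4 CPM after irradiation, with irradiated library 1 highest (-0.95 ± 0.31). The lower level was thus seen in both arms, with opposite ranks for irradiated library 1.

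miR-672-3p, from an intron of the X-linked gene Nexmif (chrX:104116175-104116274, minus strand), stood at 16.5, 13.6, 14.9 and 9.90 CPM in control lungs against 3.71, 5.94, 4.55 and 5.53 CPM after irradiation (log2 fold change -1.46 ± 0.31, edgeR adjusted p = 0.0997). It had the smallest p of the lower miRNAs. miR-361-5p, in an intron of the X-linked gene Chm (chrX:113074824-113074893, minus strand), stood at 534, 452, 454 and 509 CPM in control lungs against 150, 329, 272 and 302 CPM after irradiation (-0.89 ± 0.29, or -0.70 without irradiated library 1). miR-374b-5p, in an intron of the non-coding gene Ftx that neighbours Xist, stood at 1406, 1336, 1287 and 938 CPM in control lungs against 905, 855, 775 and 755 CPM after irradiation (-0.59 ± 0.22). The labels give no sex of the mice, and of the 49 tested miRNAs placed on the X chromosome 28 were above 0 and 21 below.

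miR-145a-5p, a smooth muscle miRNA, stood at 5283, 7270, 4346 and 8543 CPM in control lungs against 2374, 4182, 4176 and 3316 CPM after irradiation, the highest of these just below the lowest control (log2 fold change -0.86 ± 0.26, edgeR adjusted p = 0.224). miR-145a-3p of the same hairpin was at 519 to 748 CPM in control lungs and, apart from 2491 CPM in irradiated library 1, at 461 to 503 CPM after irradiation. miR-143-3p, made from the same gene, was at 28454 ± 2238 and 29698 ± 5953 CPM. The remaining lower miRNAs were miR-455-3p (-1.28), miR-1941-3p (-1.21), miR-452-3p (-0.93) and miR-676-5p (-0.92), and miR-5620-5p, which was at 3.19 to 4.95 CPM in control lungs against 0 to 2.26 CPM after irradiation.

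Marker miRNAs of the cell types of lung were present in all libraries: miR-126a-3p of endothelium was at 28356 CPM or more, and miR-200c-3p of epithelium at 11158 CPM or more. The lists of 5 cell types centred near 0, with medians of 0.11 (3 endothelial miRNAs), -0.02 (10 epithelial), -0.16 (6 of ciliated cells), -0.06 (4 of smooth muscle) and 0.12 (6 of fibroblasts). The summed levels of all 5 overlapped between the groups. Without irradiated library 1 the medians were -0.08, -0.11, -0.33, -0.40 and 0.39 in the same order. The 3 tested miRNAs of stratified epithelium, from miR-203 and miR-205, were all below 0. Their median was -0.61, or -0.40 without irradiated library 1. Their summed level was 891 to 985 CPM in control lungs against 636 to 811 CPM after irradiation, with no overlap. The fibroblast medians include miR-199a-3p (0.55) and miR-199b-3p (-1.60), whose counts change places, and the median was -0.23 without irradiated library 4. miR-122-5p, the hepatocyte miRNA, was at 562 to 860 CPM in control lungs against 458 to 909 CPM after irradiation. Erythroid miRNAs had 5 of 7 below 0 and a median of -0.26, or -0.65 without irradiated library 1 and -0.02 without irradiated library 3 or 4. miR-144-3p was at 1777 to 3151 CPM in control lungs against 2137, 1072, 713 and 1135 CPM after irradiation, while miR-451a of the same gene was at 27230 ± 3115 and 25163 ± 7519 CPM. miR-486a-5p had 825 to 1889 counts in controls but 4614, 57, 275 and 239 counts in irradiated lungs, and it has a near-identical copy, miR-486b-5p, so its split is uncertain.

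Striated muscle miRNAs had 6 of 8 below 0 and a median of -0.80, and it was 0.16 without control library 4 and -1.43 without irradiated library 1. Their summed level was 657 to 3370 CPM in control lungs against 455 to 1873 CPM after irradiation, wide in both groups. miR-1a-3p stood at 384, 1100, 362 and 2420 CPM in control lungs against 1213, 309, 424 and 187 CPM after irradiation, with control library 4 highest. miR-208a-3p, the miRNA of the title, lies in a Myh6 intron (Myh6 encodes a myosin of heart muscle; chr14:54949060-54949142, minus strand). It had 0, 128, 2 and 420 counts in controls and 97, 21, 63 and 1 in irradiated lungs (0, 34.2, 0.58 and 130 against 40.0, 5.94, 15.9 and 0.28 CPM), a full overlap. The log2 fold change was -1.42 ± 1.55 (edgeR adjusted p = 0.658) and turned to 0.40 without control library 4.

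**Figure D3:**
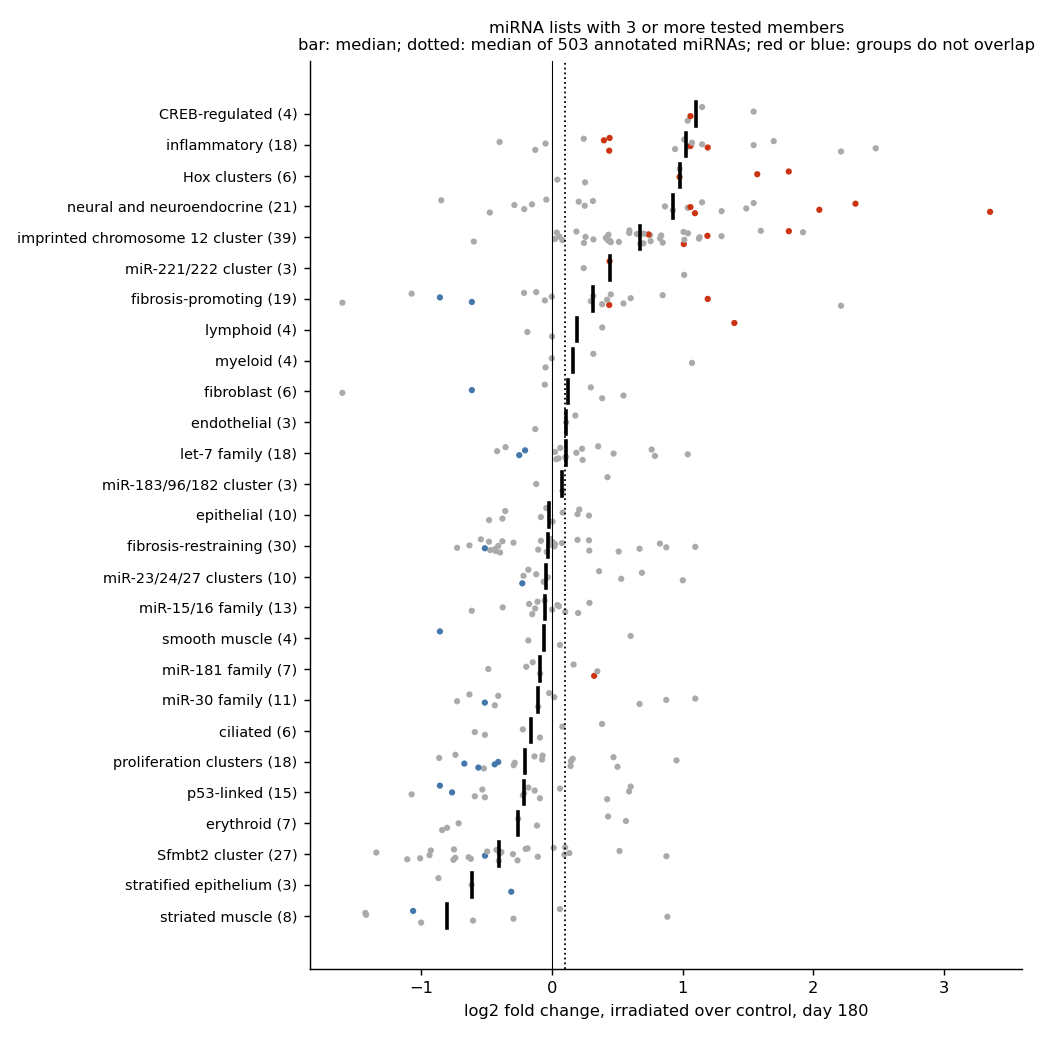
Log2 fold change at day 180 (x axis) of every tested miRNA in the lists with 3 or more tested members (rows, number tested in brackets), with the median of each list as a bar and the median of all 503 annotated miRNAs (0.10) as a dotted line. Red and blue points are miRNAs whose groups do not overlap. The CREB-regulated, inflammatory, Hox and neural lists have the highest medians (1.10, 1.02, 0.98 and 0.93) and the striated muscle list the lowest (-0.80). All CREB-regulated miRNAs are also members of the inflammatory and neural lists, so these medians are not independent.

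The 27 tested products of the Sfmbt2 cluster, a rodent-specific group in an intron of that placental gene, had 21 below 0 and a median of -0.41 (-0.31 without irradiated library 1 and -0.74 without irradiated library 2). Most are near-identical copies, so counts of single members are uncertain and the 27 are not independent. In 1 of them, miR-466p-5p, all irradiated libraries lay below the controls (6.76% over all annotated miRNAs). The let-7 family had 14 of 18 above 0 with a median of 0.10, equal to that of all miRNAs, and -0.13 without irradiated library 1. In 2 of the 18, let-7d-5p (-0.25) among them, all irradiated libraries lay below the controls (6.76% over all annotated miRNAs), and in none above.

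Where both arms of a hairpin were tested, they lay on the same side of 0 in 75 of 135 hairpins, 42 higher and 33 lower. Ordered by the larger p of the arms, miR-21a came first among these 75, followed by miR-582. Grouped by seed, 47 seeds had 2 or more tested miRNAs, and in 24 of these all members lay on the same side, 14 above and 10 below 0. Of the 13 seeds with 3 or more members, 1 had all members above 0, ACCCGUA (miR-99a-5p, miR-99b-5p and miR-100-5p, median 0.13), and 4 had all members below 0. These were AAAGUGC (miR-17-5p, miR-20a-5p, miR-20b-5p, miR-93-5p and miR-106b-5p, median -0.44), ACAUUCA (4 miR-181 members, -0.17), AGCACCA (3 miR-29 members, -0.43) and AGUGCAA (miR-130a-3p, miR-130b-3p and miR-301a-3p, -0.47). The seed AUUGCAC of miR-92a-3p and miR-92b-3p had 4 of 5 below 0. Members of a seed group often share a gene, so these counts are a description.

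At the earlier days the 15 higher miRNAs lay on both sides of 0. Of those tested, 4 of 12 were above 0 at day 14 and 7 of 14 at day 90. miR-7b-5p was at 64.5 and 251 CPM in control and irradiated lungs at day 90 (log2 fold change 1.96 ± 0.72), and at 45.7 and 39.9 CPM at day 14 (-0.20). miR-196b-5p was at 41.9 and 39.9 CPM at day 90 (-0.07 ± 0.30), and its log2 fold change at day 14 was -0.26 ± 0.30. Of the 15 lower miRNAs, 11 of 14 were below 0 at day 14 and 12 of 15 at day 90. Over the annotated miRNAs the median log2 fold change was 0.0040 at day 14 and -0.03 at day 90. Whether the counts for the higher or lower miRNAs depart from this was not tested.

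The difference between days was tested on all 24 libraries as an interaction of radiation and day. edgeR called 0 of 624 rows for day 180 minus day 14 (percent called 0; 71 at an unadjusted p under 0.05, 11.4%; smallest adjusted p 0.0956) and 0 of 624 for day 180 minus day 90 (percent called 0; 91 at an unadjusted p under 0.05, 14.6%; smallest adjusted p 0.12). DESeq2 called 2 and 3. miR-196b-5p had the smallest adjusted p in both, with differences in log2 fold change of 2.07 and 1.85. For miR-7b-5p the differences were 3.55 (edgeR adjusted p = 0.181) and 1.40 (0.47). The imprinted chromosome 12 cluster had a median of 0.05 at day 14, 0.47 at day 90 and 0.68 at day 180, each against its own controls. The inflammatory list had 0.02, 0.0089 and 1.02, the neural list 0.04, 0.06 and 0.93, and striated muscle 0.37, 1.44 and -0.80. Across miRNAs the log2 fold changes of day 180 had a Spearman rho of 0.17 with those of day 14 (454 miRNAs) and of 0.09 with those of day 90 (490 miRNAs), as a description over miRNAs that share libraries.

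**Figure D4:**
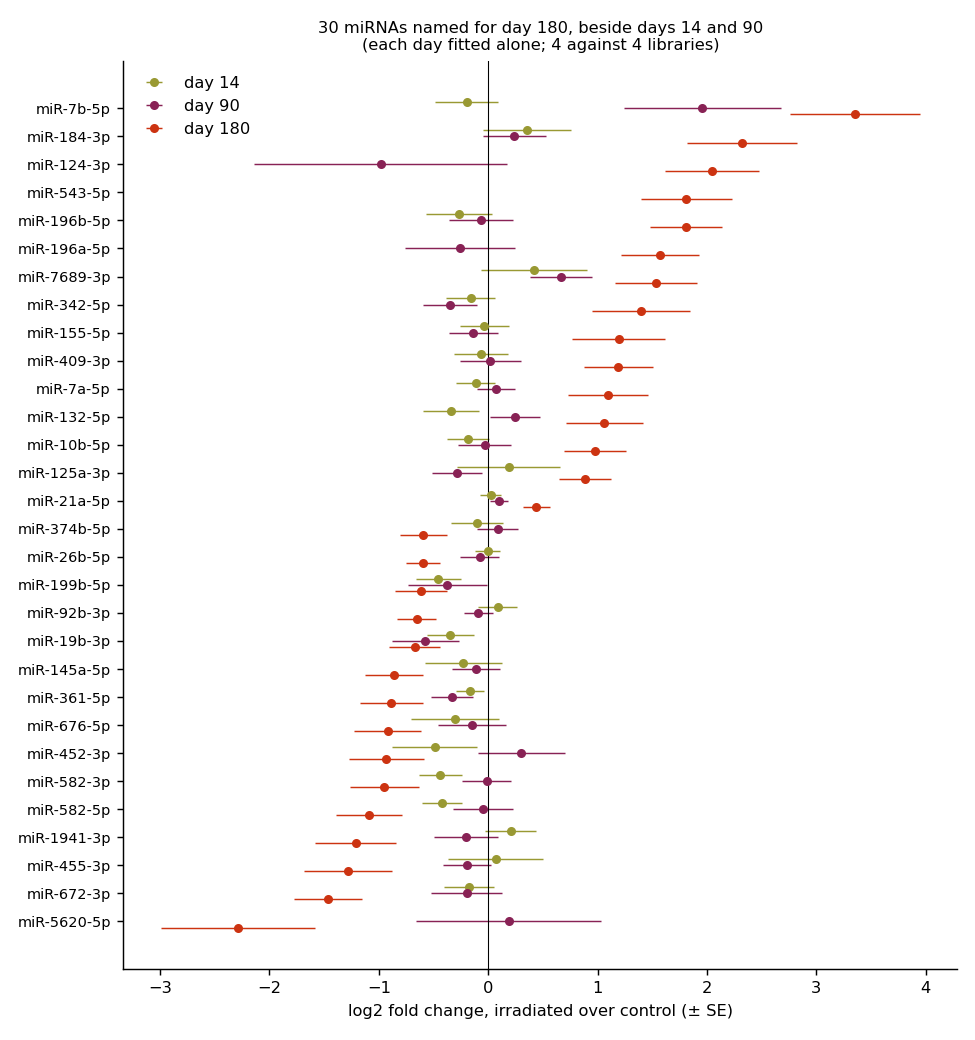
Log2 fold change ± SE of irradiated over control lung (x axis) at day 14, day 90 and day 180, each day fitted alone with 4 against 4 libraries, for the 30 miRNAs described for day 180 (rows). The miRNAs were chosen at day 180, where all 30 lie farthest from 0 among the days on which they were tested, and miR-7b-5p is also at 1.96 at day 90.

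Leaving out irradiated library 1 moved the median log2 fold change of all annotated miRNAs from 0.10 to -0.0066. Values with and without it had a Spearman rho of 0.82 over the 503 miRNAs. let-7d-3p stood at 2621 to 3849 CPM in control lungs and at 3240, 3649 and 3134 CPM in irradiated libraries 2 to 4 but at 14976 CPM in irradiated library 1. miR-322-5p was at 6507 to 7973 CPM in control lungs, 9050 to 12582 CPM in irradiated libraries 2 to 4 and 1501 CPM in irradiated library 1. With DESeq2 and without that library 76 rows passed (9.99%), 25 of the 30 miRNAs among them. The 30 were chosen on these same libraries, so their count is no further support. edgeR without that library called 0 (percent called 0).

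**Figure D5:**
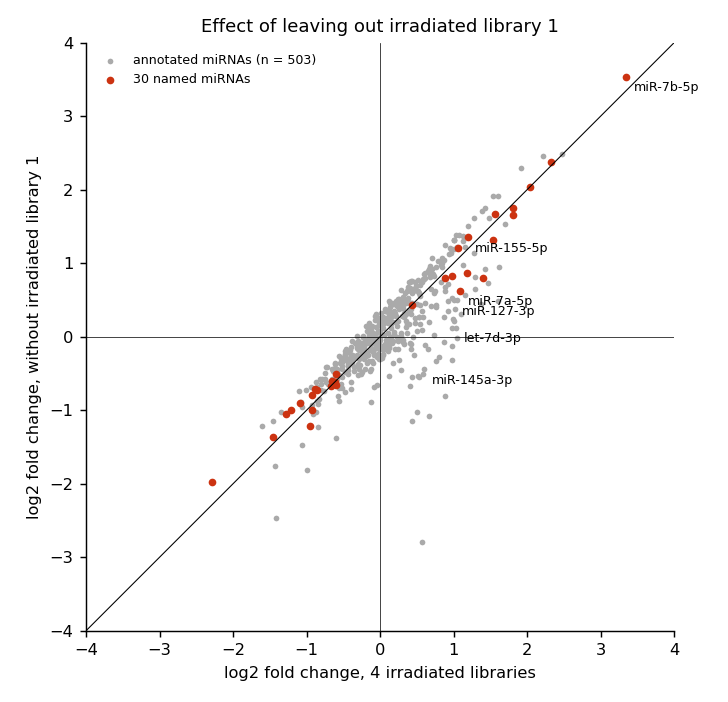
Log2 fold change at day 180 with all 4 irradiated libraries (x axis) against that without irradiated library 1 (y axis) for 503 annotated miRNAs, with the line of equality. The 30 miRNAs described are red, with a sign that is fixed on both axes by how they were chosen, and miR-7a-5p is among them at 1.09 and 0.63.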

How the data were processed

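Total RNA of whole lung was extracted with Trizol, RNA of 18 to 30 nt was cut from a gel, and adaptor-ligated cDNA was amplified by PCR, per the labels' protocols. The authors deposited 1 table per day with a raw count and an RPM value for each miRNA and library, and the submitters' processing notes name Bowtie2 and GRCm38.p6. The ratio of count to RPM gives the total that the RPM values were divided by, 13161787 to 16081430 per library. This is not the total of the table's counts, and it served only in 1 alternative. The near-constant counts of the most abundant miRNAs are in the deposited counts, and no source used here names the step that gave them. The table had 1767 rows, of which 433 were predicted miRNAs. The deposited counts were filtered with filterByExpr, scaled by TMM and tested with edgeR 4.0.16 (quasi-likelihood, R 4.3.3) on the 8 libraries, over all 552 rows left, with Benjamini-Hochberg adjustment at 0.05. Differences between days were tested in a fit of all 24 libraries. Other tools were DESeq2 1.42.0 and limma 3.58.1. The edgeR tests of day 180 and of its difference from day 14 were tested on simulated data with known changes. The simulation did not model a library that stands apart or the near-constant counts of abundant miRNAs, so it does not cover these limits. PCR copies were counted without molecular identifiers. The closest pair of libraries differed beyond sampling noise (chi-square per degree of freedom 50.2), so none was counted as a duplicate.

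The members and lists were chosen with earlier results of these data known. The miRNAs named are the 15 higher and the 15 lower with the smallest unadjusted edgeR p among annotated miRNAs whose groups do not overlap, the 10 most abundant by mean CPM, miR-208a-3p, and from each of 30 lists the 2 tested members with the smallest p and the 2 with the highest CPM. Others, such as miR-322-5p and relatives with the same seed or hairpin, were named after their values were seen. Alternatives were other scalings and filters, annotated miRNAs only, the other tools, a block for the library number and each library left out. Leaving out rows above a mean of 20000 counts, and DESeq2 without irradiated library 1, were added after the data were seen. List medians without irradiated library 1 are over the members tested with all 8 libraries, and those without another library over the members tested in that fit.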

Additional observations from a re-analysis of the deposited data

Results flagged for a closer look

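In 19 of 226 groups of 4 libraries (8.41%) the highest or lowest library lay far from the other 3 by Dixon's criterion, which chance meets in about 1 of 20 groups. In 10 of the 19 it was irradiated library 1, in 4 irradiated library 4, in 3 control library 3 and in 2 control library 4.

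Irradiated library 1 was above the other irradiated libraries in the CPM of abundant miRNAs. It stood at 43857 CPM of miR-22-3p (others 27414 to 30206), 43544 CPM of let-7c-5p (25858 to 28663), 40140 CPM of let-7i-5p (23304 to 24534), 38533 CPM of miR-143-3p, 38297 CPM of let-7a-5p (23026 to 25438) and 21852 CPM of miR-200c-3p. It was also high in the products let-7d-3p (14976 CPM) and miR-145a-3p (2491 CPM) and in miR-409-3p (52.4 CPM), and low in miR-582-5p (34.7 CPM against 70.7 to 74.4). This library had the lowest total (2832205) and a scaling factor of 0.856, while the raw counts of the most abundant miRNAs hardly varied. Its raw count was within the range of the other 7 libraries for miR-22-3p (106253) and let-7a-5p (92783) and the lowest of all 8 for miR-143-3p (93355). It was above that range for let-7c-5p (105495), let-7i-5p (97249), miR-200c-3p (52941), let-7d-3p (36284) and miR-145a-3p (6035).

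Irradiated library 4 stood apart in both products of miR-210, the miRNA best known for induction in low oxygen. miR-210-3p was at 86.5 CPM, above the other irradiated libraries, and miR-210-5p at 32.1 CPM against 2.06 to 6.33. It was low in miR-34a-5p, at 12811 CPM, which is within the control range. Its 1748 CPM of miR-199b-3p is the exchange of counts with the identical miR-199a-3p.

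Among controls, library 3 was low in miR-125a-3p (30.0 CPM against 37.8 to 39.3) and miR-342-5p (35.3 CPM against 62.5 to 64.3) and high in miR-132-5p (15.2 CPM against 12.0 to 12.1). Control library 4 was low in miR-155-5p (315 CPM against 493 to 518) and high in miR-16-5p (26738 CPM against 20842 to 21693).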

How the results depend on the processing

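edgeR called 0 miRNAs at day 180 under the other scalings, the mean of at least 10 CPM, annotated miRNAs only and without the rows above 20000 counts, as did limma-voom. The count was 18 with no filter on low counts, 27 with DESeq2, 44 with library weights, 32 with all 24 libraries in 1 fit and 76 with DESeq2 without irradiated library 1. Leaving out 1 library gave 0 to 5 (5 without irradiated library 2, 3 without irradiated library 4). The tests between days gave 2 (day 14) and 3 (day 90) with DESeq2, and 0 to 18 and 0 to 10 with 1 library left out, most without irradiated library 2 and irradiated library 1. Whether library numbers pair the samples is not told by the labels. Deviations of same-numbered libraries from their group means had correlations of -0.36 to -0.09, so no likeness between them was seen. The fit with the replicate block called 0. The log2 fold change of miR-208a-3p turned from -1.42 to 0.43 with limma-voom and 0.43 with library weights, to 0.32 with the replicate block and, with 1 library left out, ran from -2.47 (without irradiated library 1) to 0.40 (without control library 4); the cause was not tested. Of 1121 values for 54 miRNAs, 1004 kept their direction and side of the threshold, 113 passed it and 4, those of miR-208a-3p, changed direction. The list median of striated muscle was 0.16 without control library 4, that of the neural list 0.27 with no filter, and that of the fibrosis-promoting list 0.09 without irradiated library 4. The near-constant counts of abundant miRNAs limit what can be seen of them.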

Other observations

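miR-322-5p, which slows the cell cycle through cyclins and CDC25A and is known as the mouse counterpart of miR-424, was higher in irradiated libraries 2 to 4 than in all controls and lower in irradiated library 1 than in any other library. miR-199a-5p had the same order, with 5234 to 5551 CPM in control lungs, 6459, 8178 and 11030 CPM in irradiated libraries 2 to 4 and 2548 CPM in irradiated library 1. For miR-342 the arms differed: irradiated library 1 had the highest level of miR-342-5p (295 CPM) and the lowest of miR-342-3p (385 CPM) of its group.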
